A study of Mus musculus with 11 samples.

Results

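Gene expression in *Rspo2*;*Wnt9b* double mutant (DKO) facial processes was compared with that in *Wnt9b* single mutant (*Wnt9b*KO) facial processes, which differ by the additional loss of *Rspo2*. The members were chosen by genotype label, as the 3 DKO and the 3 *Wnt9b*KO libraries, which are 6 of the 11 libraries of the series. They are described across autosomal genes, of which 16358 passed the filter on low counts among 17317 genes tested and 38561 genes counted. Total RNA of explanted mouse facial processes was sequenced at E10.5, a tissue that holds the mandibular and maxillary arch and the nasal processes. The question addressed was which genes depend on *Rspo2* when *Wnt9b* is already absent. DKO embryos were homozygous mutant for both genes, *Wnt9b*KO embryos for *Wnt9b* only, and the other libraries were 3 from *Rspo2* homozygous mutants (*Rspo2*KO) and 2 from wild type (wt). The strain is labelled Mixed in all groups. The labels do not state whether the libraries of a genotype came from separate embryos or litters, so p-values measure the spread between libraries, which may be technical. Total counts were 17156003, 16815155 and 16948615 in the *Wnt9b*KO libraries and 16266505, 15821745 and 18017344 in the DKO libraries. Levels are given as CPM (counts scaled to library size) in the order of replicates 1, 2 and 3, and differences as log2 fold changes of DKO over *Wnt9b*KO with their standard errors (SE).

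WNT9B is a secreted WNT ligand of the facial ectoderm, and RSPO2 is a secreted protein of the underlying mesenchyme. R-spondins bind LGR receptors and the ubiquitin ligases ZNRF3 and RNF43, which otherwise remove Frizzled receptors from the cell surface, and thereby raise the response of a cell to WNT ligands. Through beta-catenin and TCF/LEF factors, WNT signaling in the facial processes acts upstream of genes for outgrowth and patterning such as *Fgf8*, *Msx1* and *Msx2*.

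The targeted genes were read first, since they check the labels. *Rspo2* (chr15:43020794-43170826, minus strand, GRCm38) was at 22.8, 2.86 and 18.1 CPM in the *Wnt9b*KO libraries and at 4.17, 3.67 and 15.5 CPM in the DKO libraries, against 14.8 and 16.01 CPM in wt. The library labelled *Wnt9b*KO 2 had a level below all *Rspo2*KO and DKO libraries, while that labelled DKO 3 was in the range of wt, so that both go against their labels. With all 6 libraries the difference in *Rspo2* was -0.91 (SE 0.56, adjusted p = 0.959 in edgeR's quasi-likelihood test). Without these 2 libraries it was -2.38, a value that follows from leaving them out for their *Rspo2* counts and is given with no test. *Wnt9b* (chr11:103727364-103749821, minus strand) stood at 23.3, 16.3 and 16.2 CPM in *Wnt9b*KO and at 18.3, 20.2 and 19.8 CPM in DKO. Both groups carry the *Wnt9b* mutation and counts over the whole gene do not show the deleted exons, so *Wnt9b* does not check the labels. All libraries were kept under their labels, and results that rest on the 2 libraries are given with and without them.

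The genotypes also differed in the sex of the embryos. *Xist*, the transcript that coats the inactive X of females, was at 1.81, 1.85 and 1.56 CPM in *Wnt9b*KO and at 1332, 1040 and 1469 CPM in DKO. The Y-linked *Ddx3y* was at 67.3, 68.2 and 69.4 CPM in *Wnt9b*KO and at 0.0587, 0.125 and 4.43 CPM in DKO. All *Wnt9b*KO libraries thus had a male pattern and all DKO libraries a female one, with some Y-linked counts in DKO 3, and *Kdm5d*, *Eif2s3y* and *Uty* were also higher in DKO 3 than in DKO 1 and DKO 2. Sex and *Rspo2* genotype cannot be told apart in this comparison, which is why autosomal genes are described. Mitochondrial genes took 9.76, 15.1 and 16.3% of counts in *Wnt9b*KO and 14.5, 15.2 and 21.5% in DKO, with the highest share in DKO 3 and the lowest in *Wnt9b*KO 1, and their part in the results was not tested.

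**Figure D1:**
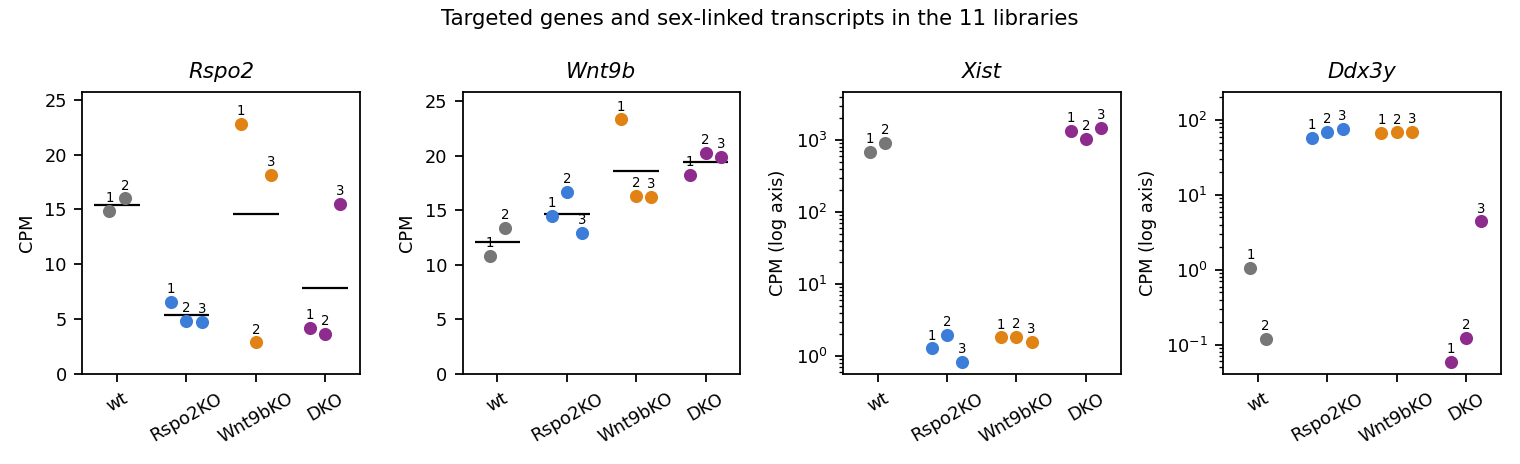
*Rspo2*, *Wnt9b*, *Xist* and *Ddx3y* in each of the 11 libraries by genotype, in CPM on linear axes with bars at genotype means (*Rspo2*, *Wnt9b*) or on log axes (*Xist*, *Ddx3y*), with points numbered by replicate. *Wnt9b*KO 2 lies at 2.86 CPM of *Rspo2* and DKO 3 at 15.5 CPM, each apart from the other libraries of its genotype.

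Few autosomal genes separated DKO from *Wnt9b*KO once p-values were adjusted, and the genes higher in DKO outnumbered those lower. With adjusted p below 0.05 and levels differing by over 1.5-fold, 10 autosomal genes were higher in DKO (0.0611% of those tested) and 5 were lower (0.0306%). At the unadjusted threshold with the same fold, 300 genes were higher (1.83%) and 168 were lower (1.03%). At an unadjusted p below 0.05 and any fold, which is used below to describe gene lists, 590 genes were higher (3.61%) and 318 were lower (1.94%). The median log2 fold change over all autosomal genes tested was -0.003, which the scaling of libraries sets near 0. The 3 DKO libraries did not overlap the 3 *Wnt9b*KO libraries in 1825 genes (11.2%). All 15 genes past the adjusted threshold were among them, and 14 of the 15 are protein coding. In 9 of the 15 the *Wnt9b*KO mean was the lowest of the 4 genotype means, and in 5 it was the highest. The DKO mean lay between the *Wnt9b*KO and wt means in 8. The genes were chosen by the contrast with *Wnt9b*KO, so these counts only describe them. Genes said below to rise or fall do so relative to *Wnt9b*KO, not to wt.

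The count of 15 depended on the libraries in the fit. With only the 6 DKO and *Wnt9b*KO libraries in the model, which then estimates the spread without wt and *Rspo2*KO, *Sycp1* alone passed and the other 14 genes did not. With all genotypes in the model, the count was 38 without *Wnt9b*KO 1, 9 without *Wnt9b*KO 2, 5 without *Wnt9b*KO 3, 49 without DKO 1, 6 without DKO 2 and 3 without DKO 3. Of the 15 genes, 12 were still past the threshold without *Wnt9b*KO 1 and 13 without DKO 1, but 4 without *Wnt9b*KO 2, 1 without *Wnt9b*KO 3, 3 without DKO 2 and 2 without DKO 3. *Sycp1* passed in each of these. Without both libraries whose *Rspo2* counts go against their labels, 14 autosomal genes passed. Of the 14, 4 were higher (0.0247% of 16195 tested) and 10 lower (0.0617%). Those lower include *Rspo2*, whose passing follows from the choice of libraries and is no test. Of the 14, 5 were shared with the 15, namely *Sycp1*, *Hoxa2*, *Sgip1*, *AK157302* and *Snhg11*.

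**Figure D2:**
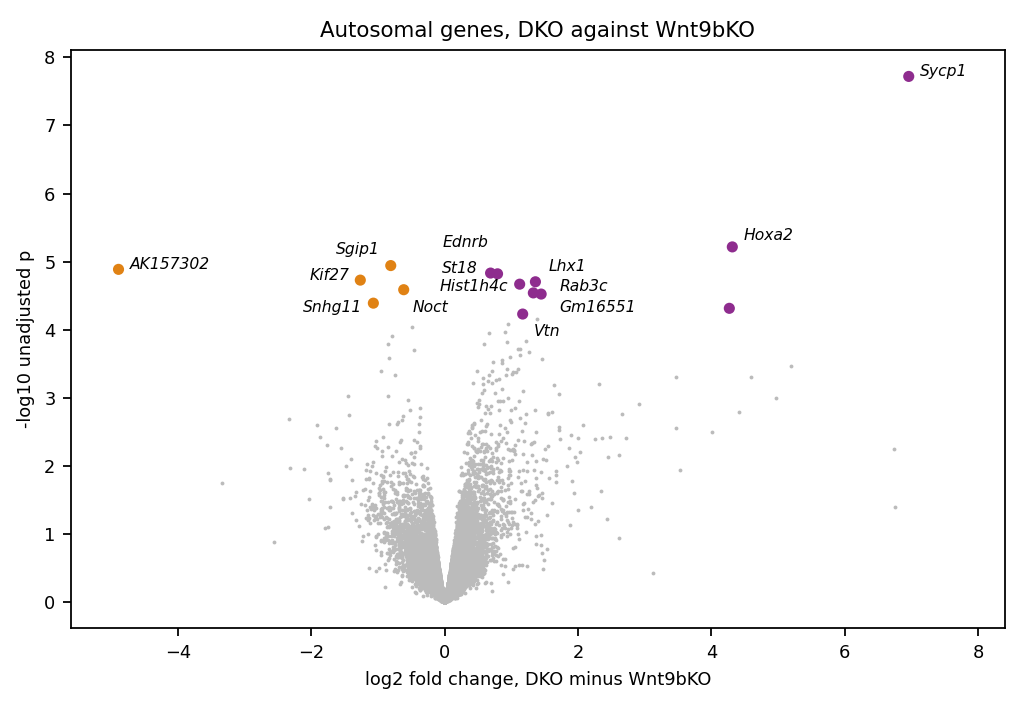
Log2 fold change of DKO over *Wnt9b*KO against -log10 of the unadjusted p for the 16358 autosomal genes tested, with the genes past the adjusted threshold in purple (10 higher in DKO) and orange (5 lower). Of these *Sycp1* lies farthest to the right and *AK157302* farthest to the left.

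Of the 10 genes higher in DKO, *Hoxa2* had the largest difference after *Sycp1*. *Hoxa2* (chr6:52162417-52164831, minus strand), the Hox gene that patterns the second branchial arch and the anterior hindbrain, was at 0.160, 0.358 and 0 CPM in *Wnt9b*KO and at 1.12, 4.98 and 4.67 CPM in DKO. The *Wnt9b*KO libraries were at or near 0, DKO 1 was lower than the other DKO libraries, and the wt libraries were at 4.73 and 5.07 CPM. *Hoxa2* rose by 4.31 (SE 0.63, adjusted p = 0.0131). It missed the threshold without *Wnt9b*KO 3 (adjusted p = 0.0604) or without DKO 3 (0.0588). Without both *Wnt9b*KO 2 and DKO 3 the difference was 5.03 (adjusted p = 0.0398).

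*Lhx1* (chr11:84518284-84525535, minus strand), which encodes a LIM homeodomain factor of interneurons and of the head organizer, was at 1.54, 1.49 and 1.499 CPM in *Wnt9b*KO and at 2.995, 3.67 and 5.04 CPM in DKO, with wt at 3.75 and 4.53 CPM. It rose by 1.36 (SE 0.22, adjusted p = 0.0244), with all DKO libraries above all *Wnt9b*KO libraries. *Rab3c* (chr13:110054187-110280996, minus strand), a GTPase of secretory vesicles, was at 3.78, 2.27 and 2.22 CPM against 5.93, 6.41 and 8.62 CPM in DKO, with wt at 4.73 and 6.28 CPM. It rose by 1.33 (SE 0.22, adjusted p = 0.0288), and missed the threshold with a replicate block. *St18* (chr1:6487231-6860940, plus strand), a zinc finger factor of the myelin transcription factor family, was at 20.1, 20.03 and 17.99 CPM against 28.3, 34.1 and 31.4 CPM in DKO, with wt at 22.2 and 24.9 CPM. It rose by 0.69 (SE 0.11, adjusted p = 0.0218). *Ednrb* (chr14:103814625-103844402, minus strand), the endothelin B receptor of neural crest derived cells, was at 30.5, 27.0 and 31.9 CPM against 44.4, 55.9 and 54.7 CPM in DKO, with wt at 44.1 and 58.4 CPM. It rose by 0.79 (SE 0.13, adjusted p = 0.0218). *Lhx1*, *Rab3c*, *St18* and *Ednrb* each missed the threshold without *Wnt9b*KO 2, *Wnt9b*KO 3, DKO 2 or DKO 3, with adjusted p between 0.0509 for *St18* without *Wnt9b*KO 2 and 0.170 for *Rab3c* without DKO 3. In bulk tissue, fewer cells of a type and less RNA per cell cannot be told apart, which holds for these genes and for the lists below.

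**Figure D3:**
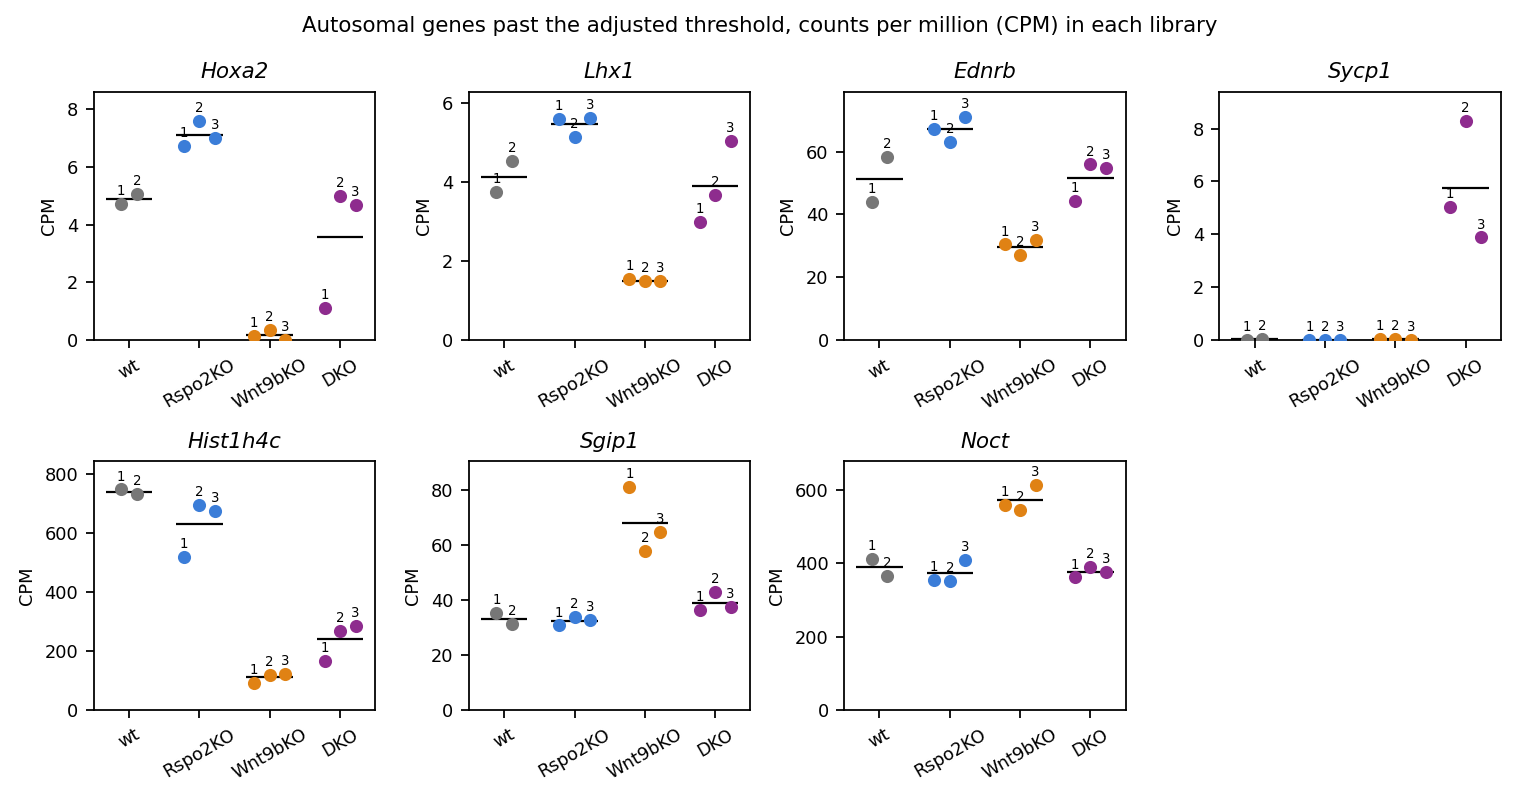
CPM of 7 of the genes past the adjusted threshold in each library by genotype, on linear axes, with points numbered by replicate and bars at genotype means. For *Hoxa2* DKO 1 lies closest to the *Wnt9b*KO libraries, at 1.12 CPM, while DKO 2 and DKO 3 lie near wt.

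The other genes higher in DKO have no role in common. *Sycp1* (chr3:102818499-102936100, minus strand), a component of the synaptonemal complex of meiotic chromosomes, was at 0.0532, 0.0596 and 0 CPM in *Wnt9b*KO and at 5.05, 8.28 and 3.88 CPM in DKO. It was at 0 or 0.0604 CPM in the wt libraries and at 0 in all *Rspo2*KO libraries, so that only the DKO libraries had more than 1 count each. Its counts summed to 283 in DKO and 2 in *Wnt9b*KO, a ratio of 149 (95% counting interval 40.9 to 1237, adjusted p = 6.59e-05). *Hist1h4c* (chr13:23697635-23698454, minus strand), one of the replication dependent histone H4 genes, was at 89.7, 119 and 120 CPM in *Wnt9b*KO and at 166, 268 and 284 CPM in DKO. It rose by 1.13 (SE 0.18, adjusted p = 0.0247), but both groups lay below the 748 and 733 CPM of wt. Histone genes are near-identical copies, so how reads were divided among them is uncertain. *Vtn* (chr11:78499091-78502324, plus strand), which encodes the adhesion protein vitronectin, was at 5.005, 5.54 and 7.14 CPM against 9.75, 15.1 and 14.9 CPM in DKO, with wt at 16.5 and 16.7 CPM. It rose by 1.17 (SE 0.21, adjusted p = 0.0485), and missed the threshold with RLE factors and with autosomal genes only. *Gm16551* (chr9:74847983-74860134, plus strand) was at 1.97, 1.25 and 1.80 CPM against 3.35, 5.67 and 4.79 CPM in DKO, with wt at 4.47 and 3.20 CPM, and rose by 1.45 (SE 0.24, adjusted p = 0.0288), and missed the threshold with a replicate block. Without *Wnt9b*KO 2, adjusted p was 0.0546 for *Hist1h4c*, 0.163 for *Vtn* and 0.125 for *Gm16551*. All of these, *Sycp1* apart, also missed the threshold without *Wnt9b*KO 3, DKO 2 or DKO 3, and *Vtn* without *Wnt9b*KO 1 as well (adjusted p = 0.0786).

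Of the 5 genes lower in DKO, *Snhg11* was low in DKO against all other genotypes, and the other 4 were high in *Wnt9b*KO. *Sgip1* (chr4:102741297-102973628, plus strand), an endocytic adaptor, was at 81.2, 57.6 and 64.6 CPM in *Wnt9b*KO and at 36.2, 42.8 and 37.4 CPM in DKO, and the wt libraries at 35.1 and 31.1 CPM lay near DKO. It fell by 0.81 on the log2 scale (SE 0.12, adjusted p = 0.0218). *Noct* (chr3:51224447-51251644, plus strand), a gene with circadian expression, was at 560, 546 and 615 CPM against 361, 389 and 376 CPM in DKO, with wt at 413 and 366 CPM. It fell by 0.61 on the log2 scale (SE 0.10, adjusted p = 0.0280). *Kif27* (chr13:58287502-58359122, minus strand), a kinesin related to the Hedgehog pathway kinesin *Kif7*, was at 6.71, 7.45 and 8.996 CPM against 3.11, 3.05 and 3.46 CPM in DKO, with wt at 3.93 and 2.42 CPM. It fell by 1.26 on the log2 scale (SE 0.20, adjusted p = 0.0244). *Snhg11* (chr2:158375638-158386145, plus strand), a snoRNA host gene, was at 14.4, 10.02 and 15.2 CPM against 5.29, 5.98 and 7.65 CPM in DKO, and here wt, at 10.8 and 10.9 CPM, lay with *Wnt9b*KO. It fell by 1.07 on the log2 scale (SE 0.18, adjusted p = 0.0371). *AK157302* (chr13:21495223-21497146, plus strand) was at 0.958, 2.80 and 2.34 CPM against 0, 0 and 0.182 CPM in DKO. Its counts summed to 104 in *Wnt9b*KO and 3 in DKO, a ratio of 32.9 (95% counting interval 10.9 to 162, adjusted p = 0.0218). *Sgip1* missed the threshold without *Wnt9b*KO 3 (adjusted p = 0.0594) or DKO 3 (0.119). Without DKO 2, adjusted p was 0.133 for *Noct*, 0.133 for *Kif27*, 0.180 for *Snhg11* and 0.101 for *AK157302*. These 4 also missed it without *Wnt9b*KO 3, with adjusted p of 0.166, 0.136, 0.188 and 0.0791. *Noct*, *Kif27* and *AK157302* further missed it without *Wnt9b*KO 2 (0.0509 each), *Snhg11* without *Wnt9b*KO 1 (0.0575), *Noct* and *Snhg11* without DKO 1 (0.0779 and 0.0989), and *Noct*, *Kif27* and *Snhg11* without DKO 3 (0.134, 0.108 and 0.0588). Overlapping and antisense genes cannot be told apart in these counts.

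Several genes came close to the adjusted threshold with no overlap between the groups. *Onecut3*, a transcription factor of spinal and cranial neurons, was at 1.22, 0.954 and 0.960 CPM in *Wnt9b*KO and at 2.00, 3.24 and 3.03 CPM in DKO (1.38, SE 0.25, adjusted p = 0.0523). Of the genes lower in DKO, *Wdr31* was at 46.7, 46.9 and 44.8 CPM against 35.5, 31.0 and 31.7 CPM (-0.49, SE 0.09, adjusted p = 0.0626). *Cep250*, which encodes a centrosome linker protein, was at 96.9, 54.9 and 80.4 CPM against 46.7, 46.2 and 41.4 CPM (-0.79, SE 0.15, adjusted p = 0.0755). *Cdk5rap1*, *Slc38a6* and *Gm14391* had differences of -0.84, -0.45 and -0.83 with adjusted p of 0.0881, 0.0945 and 0.111. None of these 6 genes passed the test in the reported fit. No overlap was a condition for naming them and is no result, and 11.2% of all autosomal genes tested met it. *Onecut3*, *Cep250*, *Cdk5rap1* and *Gm14391* passed in DESeq2. *Onecut3* also passed without *Wnt9b*KO 1 or DKO 1, *Cep250* and *Cdk5rap1* without *Wnt9b*KO 2, and *Gm14391* without DKO 2.

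Markers of neurons and ganglia were higher in DKO as a list. Of 20 markers, 19 were tested, and 10 were higher and 0 lower at an unadjusted p below 0.05, against 3.61% and 1.94% of all autosomal genes. The median log2 fold change of the list was 0.50, against -0.003 over all autosomal genes. The summed level was 793, 507 and 721 CPM in *Wnt9b*KO and 939, 1048 and 984 CPM in DKO, against 791 and 912 CPM in wt and 1106, 973 and 1068 CPM in *Rspo2*KO. The DKO libraries thus lay above all *Wnt9b*KO libraries, and *Wnt9b*KO 2 was the lowest of the 11. The most abundant member, the neuronal tubulin gene *Tubb3*, was at 243, 169 and 217 CPM against 287, 316 and 279 CPM in DKO (0.49, SE 0.12). *Elavl4*, which encodes a neuronal RNA-binding protein, was at 58.1, 43.0 and 51.6 CPM against 75.4, 78.7 and 76.1 CPM (0.59, SE 0.12, adjusted p = 0.0881). It missed the adjusted threshold here but passed it with a replicate block, in DESeq2 and without *Wnt9b*KO 1. *Stmn2*, a tubulin-binding protein of growing axons, was at 47.5, 24.9 and 37.4 CPM against 59.6, 59.7 and 67.7 CPM (0.77, SE 0.17, adjusted p = 0.148). *Isl1*, *Nefl* and *Neurog2*, chosen here after their values were seen, had differences of 0.55, 0.83 and 0.68. No member was at 0 counts in any of the 6 libraries. The number of members higher was 7 without *Wnt9b*KO 2, 7 without DKO 2 and between 9 and 13 without each of the other libraries. Without both *Wnt9b*KO 2 and DKO 3 it was 7, with 0 lower and a median of 0.35, where 3.15% of all autosomal genes were higher and 2.49% lower. These counts without libraries, here and for the other lists, were chosen after the data were seen. The share of all autosomal genes moved too, to 5.82% higher and 2.66% lower without *Wnt9b*KO 1, 3.36% and 2.67% without *Wnt9b*KO 2, 3.92% and 1.79% without *Wnt9b*KO 3, 3.39% and 2.21% without DKO 1, 2.901% and 1.37% without DKO 2 and 3.12% and 1.65% without DKO 3.

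The list of second arch and hindbrain genes holds 13 genes, of which 8 were tested, since 4, among them *Hoxa3*, *Hoxb4* and *Hoxd3*, did not pass the filter on low counts and 1 was not matched. Of the 8, 3 were higher and 0 lower (*Hoxa2*, *Hoxb1* and *Hoxb2*), with a median of 1.17. This is 37.5% higher, against 3.61% higher and 1.94% lower of all autosomal genes. *Hoxb1*, which marks the rhombomere of the facial nerve, was at 0.0532, 0 and 0.0600 CPM in *Wnt9b*KO and at 0, 1.56 and 0.668 CPM in DKO. Its counts summed to 36 in DKO and 2 in *Wnt9b*KO, a ratio of 18.97 (95% counting interval 4.88 to 163), and DKO 1 overlapped *Wnt9b*KO. *Hoxb2* was at 0.213, 0.179 and 0.0600 CPM against 0.176, 0.872 and 0.668 CPM (1.84, SE 0.62, adjusted p = 0.563). *Egr2*, and *Pax2*, named after its value was seen, had differences of 0.89 and -0.30. The summed level of the list was 7.51, 8.88 and 8.04 CPM in *Wnt9b*KO and 9.98, 17.3 and 14.0 CPM in DKO. In each genotype the list was low, and 0, 2 and 3 of its members were at 0 counts in the *Wnt9b*KO libraries and 3, 0 and 2 in the DKO libraries. Without DKO 2, 2 members were higher and the median was 0.37, and without both *Wnt9b*KO 2 and DKO 3, 3 were higher with a median of 1.23. How much second arch or hindbrain tissue each explant held is not recorded in the labels, and the part of these markers in the result was not tested.

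Of 11 neural crest and glia genes tested, 3 were higher (27.3%, against 3.61% of all autosomal genes) and 0 lower (against 1.94%), with a median of 0.03. Beside *Ednrb* these were *Fabp7*, a fatty acid binding protein of glial precursors, at 39.1, 18.9 and 30.3 CPM against 52.6, 53.9 and 67.9 CPM (0.98, SE 0.20, adjusted p = 0.108), and *Ngfr* at 0.30 (SE 0.14, adjusted p = 0.864). The summed level of this list was 566, 584 and 640 CPM in *Wnt9b*KO and 586, 619 and 673 CPM in DKO, and the 2 groups overlapped. Of these genes, 2 were higher and 0 lower without both *Wnt9b*KO 2 and DKO 3. Of 12 macrophage genes, 3 were higher (25%) and 0 lower, against the same 3.61% and 1.94%, with a median of 0.26. The mannose receptor gene *Mrc1* was at 13.6, 12.8 and 16.6 CPM against 20.97, 21.98 and 21.001 CPM (0.57, SE 0.13, adjusted p = 0.162), and the Fc receptor genes *Fcer1g* and *Fcgr1* were at 0.57 (SE 0.22) and 0.81 (SE 0.35). The summed macrophage level was 67.9, 43.9 and 58.1 CPM against 72.3, 70.9 and 68.5 CPM, so DKO lay above *Wnt9b*KO in every library. The macrophage count was 6 higher without *Wnt9b*KO 1, 1 higher and 1 lower without *Wnt9b*KO 2 and 1 higher without DKO 3. Without both *Wnt9b*KO 2 and DKO 3, it was 1 higher and 1 lower. In that fit 3.15% of all autosomal genes were higher and 2.49% lower.

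With all 6 libraries, edgeR gave 0 members in either direction for the lists of endothelium (15 tested, median -0.02), surface epithelium (20 tested, median -0.01), forebrain and eye (19 tested, median -0.09), heart and striated muscle (13 tested, median -0.03) and globins and erythroid genes (13 tested, median 0.01). The summed endothelial level was 315, 335 and 331 CPM in *Wnt9b*KO and 339, 308 and 309 CPM in DKO. The summed epithelial level was 440, 417 and 382 CPM against 375, 400 and 456 CPM, and that of forebrain and eye genes was 313, 550 and 370 CPM against 445, 427 and 321 CPM. In each of these the groups overlapped, and *Wnt9b*KO 2 was the highest of the 6 for forebrain and eye genes. Single libraries moved the count of forebrain and eye genes to 2 higher and 2 lower without *Wnt9b*KO 1 and 2 higher without *Wnt9b*KO 2, and that of epithelial genes to 2 higher without *Wnt9b*KO 1. Without both *Wnt9b*KO 2 and DKO 3, 6 forebrain and eye genes were higher and 0 lower (median 0.19), 3 erythroid genes were lower, and 2 epithelial genes were lower, *Tfap2a* and *Krt14* at -0.56 and -1.76. The share of all autosomal genes in that fit was 3.15% higher and 2.49% lower. DESeq2 was not run for the lists.

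**Figure D4:**
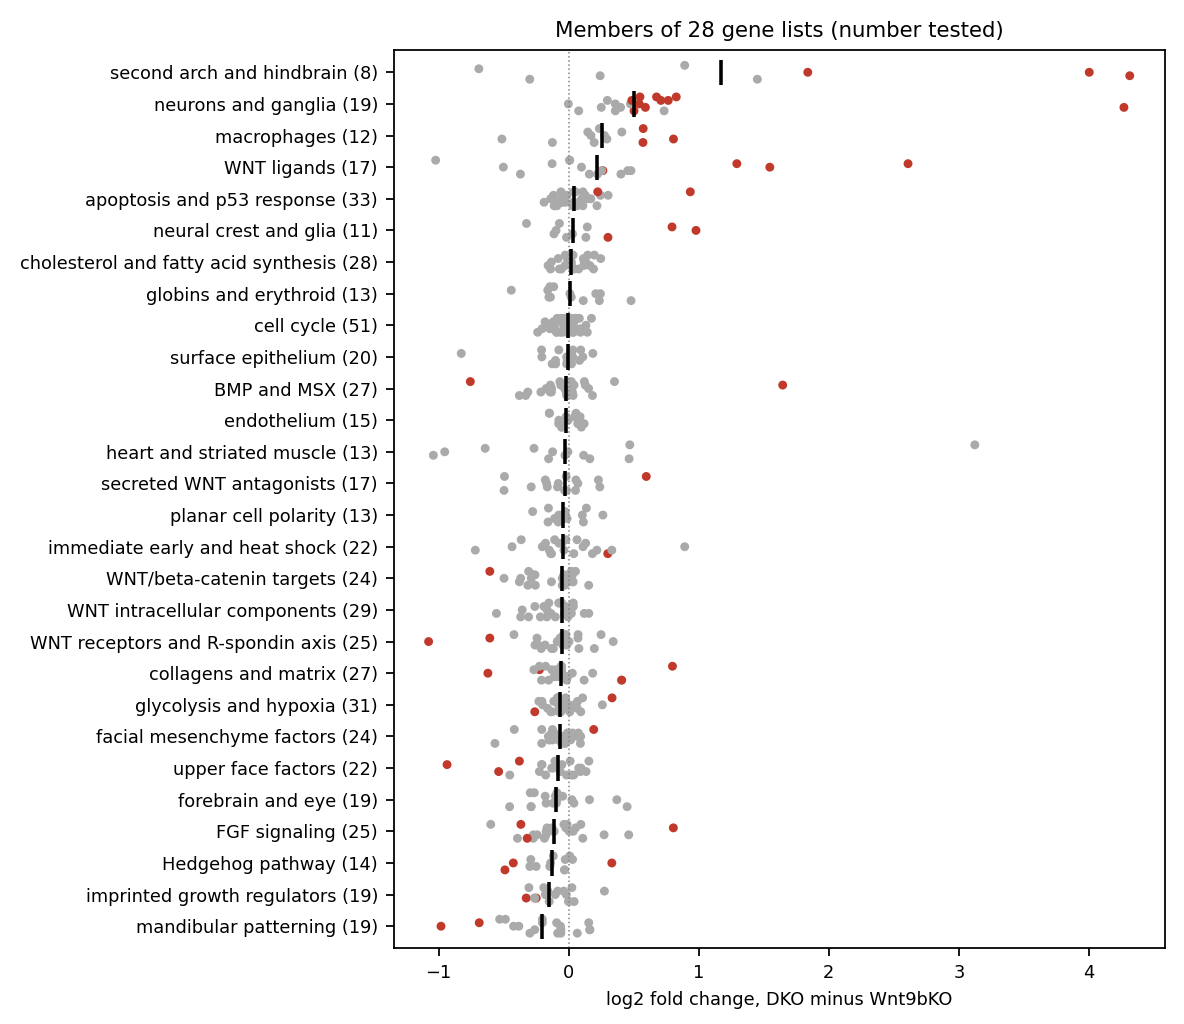
Log2 fold change of DKO over *Wnt9b*KO for the tested members of each gene list (number in brackets), ordered by the list's median (black bars), with genes at an unadjusted p below 0.05 in red. Second arch and hindbrain genes (median 1.17) and neurons and ganglia (median 0.50) stand at the top, and mandibular patterning genes (median -0.20) at the bottom.

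The summed level of WNT ligand genes was 217, 150 and 167 CPM in *Wnt9b*KO and 164, 187 and 180 CPM in DKO, and the groups overlapped. The most abundant of them, *Wnt5a*, named after its values were seen, was at 102, 48.3 and 66.2 CPM against 57.8, 53.6 and 56.1 CPM. Of 17 WNT ligand genes tested, 4 were higher (23.5%, against 3.61% of all autosomal genes) and 0 lower, with a median of 0.22. *Wnt3a*, a ligand of the dorsal neural tube, was at 0.639, 0.537 and 0.480 CPM in *Wnt9b*KO and at 1.17, 0.934 and 2.79 CPM in DKO (1.55, SE 0.40, adjusted p = 0.274). *Wnt2* was at 0.479, 0.894 and 0.480 CPM against 1.41, 2.12 and 1.03 CPM (1.29, SE 0.39, adjusted p = 0.423), *Wnt1* had a difference of 2.61 (SE 0.83) at levels near the floor, and *Wnt7b*, named after its value was seen, one of 0.26 (SE 0.11). Of these 4, only *Wnt7b* was expressed above 3 CPM. The count was 6 higher without DKO 1, while without *Wnt9b*KO 2 it was 4 higher and 3 lower. Of 25 genes of WNT receptors and the R-spondin axis, 0 were higher and 2 lower (8%, against 1.94% of all autosomal genes), median -0.05. These were the R-spondin receptor genes *Lgr5*, at 11.7, 4.71 and 7.74 CPM against 5.11, 4.86 and 5.95 CPM (-0.61, SE 0.25, adjusted p = 0.770), and *Lgr6*, at 1.22, 0.656 and 1.20 CPM against 0.411, 0.374 and 0.668 CPM (-1.08, SE 0.40, adjusted p = 0.678). The related *Lgr4* was expressed higher, at 90.0, 103 and 85.8 CPM against 90.2, 89.2 and 82.5 CPM (-0.09, SE 0.09, adjusted p = 0.978). The count of receptor genes lower was 4 without *Wnt9b*KO 2, 4 without DKO 3, 3 without *Wnt9b*KO 1, 1 without *Wnt9b*KO 3 or DKO 1, and 0 without DKO 2.

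Lists of downstream components, antagonists and targets gave 0 or 1 member each with all 6 libraries. Of 29 intracellular components, edgeR gave 0 in either direction (median -0.05), and *Bcl9l*, a beta-catenin coactivator, had a difference of -0.36 (SE 0.20). Of 17 secreted antagonists, 1 was higher and 0 lower (median -0.03). This was *Draxin*, at 7.13, 7.93 and 7.44 CPM against 10.2, 12.5 and 11.3 CPM (0.60, SE 0.14, adjusted p = 0.190). Of 13 planar cell polarity genes, edgeR gave 0 in either direction (median -0.04), with *Dchs1* at -0.28 (SE 0.14). Of 24 WNT/beta-catenin targets, 0 were higher and 1 lower (median -0.05), the latter being *Lgr5*. *Axin2*, a feedback inhibitor and widely used readout of the pathway, was at 75.1, 42.8 and 53.7 CPM against 49.6, 48.0 and 68.3 CPM (-0.05, SE 0.19, adjusted p = 0.995). *Fgf8* was at 7.77, 9.72 and 11.7 CPM against 6.11, 6.98 and 11.05 CPM (-0.27, SE 0.23, adjusted p = 0.978). *Msx1*, a homeobox gene of facial mesenchyme, was at 136, 35.1 and 90.6 CPM against 52.1, 63.4 and 95.4 CPM (-0.31, SE 0.33, adjusted p = 0.978). For each of these 3 genes the libraries of the 2 genotypes overlapped. *Dkk1*, *Znrf3*, *Msx2*, *Edn1*, *Bmp4* and *Fgf10* had differences of -0.50, -0.26, -0.38, 0.15, 0.02 and -0.04. The number of targets lower was 6 without *Wnt9b*KO 2, 7 without DKO 3, 2 without *Wnt9b*KO 1 (where 2 were higher), 1 without *Wnt9b*KO 3 and 0 without DKO 1 or DKO 2. For secreted antagonists it was 2 higher and 4 lower without *Wnt9b*KO 2 and 4 higher and 0 lower without *Wnt9b*KO 1, and for intracellular components 3 lower without *Wnt9b*KO 2.

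The FGF, BMP and Hedgehog pathways act with WNT in the face. Of 25 FGF signaling genes, 1 was higher and 2 lower (4% and 8%, against 3.61% and 1.94% of all autosomal genes, median -0.12). *Fgfr3*, an FGF receptor of cartilage and neural precursors, was at 24.8, 17.4 and 26.5 CPM against 26.2, 47.2 and 46.8 CPM (0.80, SE 0.20, adjusted p = 0.224). The feedback inhibitors *Il17rd* and *Spry4* had differences of -0.32 (SE 0.12) and -0.37 (SE 0.16). Of 27 BMP and MSX genes, 1 was higher and 1 lower (3.704% each, median -0.02). The ligand *Bmp2* had a difference of -0.76 (SE 0.33). Of 14 Hedgehog pathway genes, 1 was higher and 2 lower (7.14% and 14.3%, median -0.13). The coreceptor *Gas1* had a difference of 0.33 (SE 0.14) and the target *Foxf1* one of -0.49 (SE 0.16). None of these genes passed the adjusted threshold. Without *Wnt9b*KO 2 the BMP and MSX count was 1 higher and 4 lower, and without *Wnt9b*KO 1 it was 3 higher and 0 lower.

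Mandibular patterning genes showed how far single libraries decided a result. Of 19 genes tested, 0 were higher and 2 lower with all 6 libraries, and the median was -0.20. This is 10.5% lower, against 1.94% of all autosomal genes. *Hand2*, which acts downstream of endothelin signaling in the distal mandibular arch, was at 30.7, 14.1 and 19.4 CPM in *Wnt9b*KO and at 10.9, 15.1 and 14.0 CPM in DKO (-0.69, SE 0.23, adjusted p = 0.532). Its relative *Hand1* was at 4.10, 2.21 and 3.78 CPM against 0.646, 1.99 and 2.49 CPM (-0.98, SE 0.38, adjusted p = 0.736). For *Hand2* the groups overlapped through *Wnt9b*KO 2, which was also the lowest *Wnt9b*KO library for *Barx1* (53.7, 18.5 and 34.6 CPM) and *Lhx6* (26.8, 7.15 and 19.6 CPM), both named after their values were seen. The summed level of the list was 499, 280 and 389 CPM in *Wnt9b*KO and 357, 316 and 353 CPM in DKO. The number lower was 8 without *Wnt9b*KO 2 (2.67% of all autosomal genes lower), 0 without *Wnt9b*KO 1 (2.66%), 1 without *Wnt9b*KO 3, 1 without DKO 1, 2 without DKO 2 and 3 without DKO 3. Without both *Wnt9b*KO 2 and DKO 3, 9 of 19 were lower and 0 higher with a median of -0.55, against 2.49% lower among all autosomal genes. In that fit *Hand1* differed by -1.59 (SE 0.41), *Barx1* by -1.001 (SE 0.18), *Hand2* by -0.96 (SE 0.23) and *Lhx6* by -0.94 (SE 0.28), and none of these 4 passed the adjusted threshold.

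**Figure D5:**
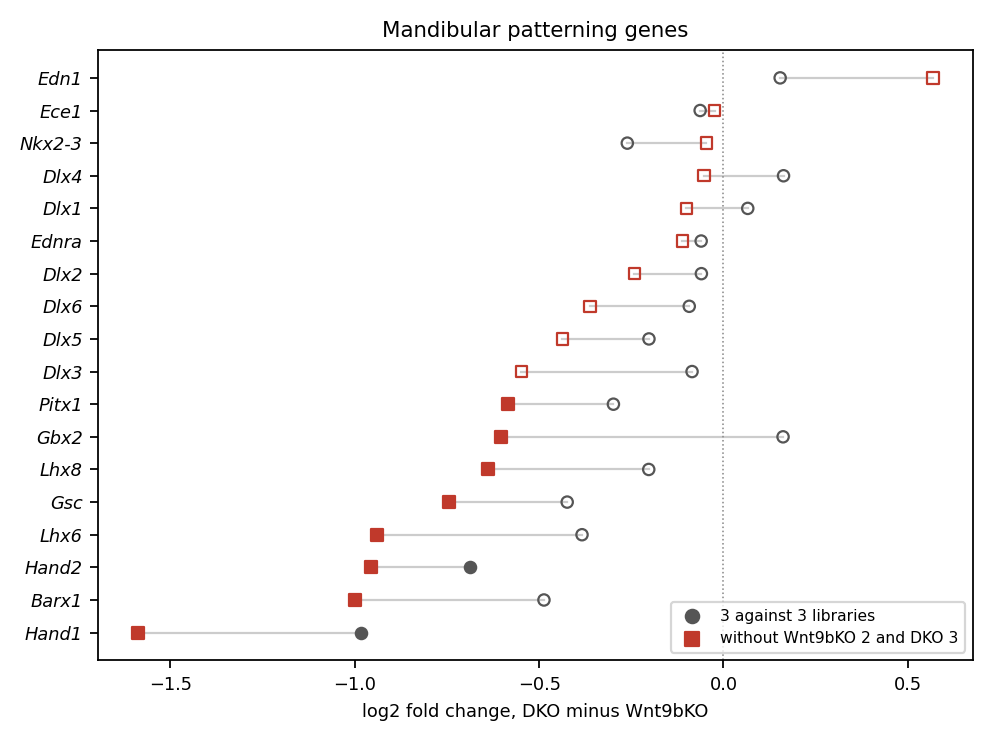
Log2 fold change of DKO over *Wnt9b*KO for 18 of the 19 mandibular patterning genes tested, with all 6 libraries (gray circles) and without *Wnt9b*KO 2 and DKO 3 (red squares), filled where the unadjusted p is below 0.05. Most genes lie farther to the left without these libraries, where the list's median is -0.55 in place of -0.20.

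The same step moved WNT targets and other genes of the facial processes. Without *Wnt9b*KO 2 and DKO 3, 11 of 24 WNT/beta-catenin targets were lower and 0 higher, with a median of -0.33. Of all autosomal genes, 2.49% were lower and 3.15% higher in this fit, which holds beside each list count below. Among them *Msx1* fell by 0.98 on the log2 scale (SE 0.17, adjusted p = 0.0455), and *Axin2* differed by -0.40 (SE 0.17, adjusted p = 0.831), *Lgr5* by -0.97 (SE 0.21, adjusted p = 0.160), *Dkk1* by -1.04 (SE 0.21, adjusted p = 0.114) and *Msx2* by -1.02 (SE 0.19, adjusted p = 0.0745). *Tbx3*, a T-box transcription factor gene, was at 46.1, 28.5 and 49.5 CPM in *Wnt9b*KO and at 25.96, 23.4 and 36.1 CPM in DKO, and fell by 0.96 on the log2 scale in this fit (adjusted p = 0.00678). *Cep250*, *Tmem59l* and *Smoc2* also passed the adjusted threshold as lower, at -0.93, -1.30 and -1.20. *Gm4737* passed it as higher, and was at 8.16, 9.96 and 10.2 CPM in DKO, at 5.66 CPM in *Wnt9b*KO 2 and at 0 in *Wnt9b*KO 1 and 3 and in all wt and *Rspo2*KO libraries. *Tmem59l*, *Smoc2* and *Gm4737* are named because they passed in this fit. The pseudogene *Eif3s6-ps2*, whose levels are given with the interaction below, also passed as higher (1.21, SE 0.20, adjusted p = 0.0398). The other counts higher and lower were 3 and 3 of WNT ligands, 1 and 6 of WNT receptors, 0 and 4 of intracellular components, 2 and 3 of secreted antagonists, 0 and 1 of planar cell polarity genes, 2 and 3 of FGF genes, 2 and 6 of BMP and MSX genes and 0 and 2 of Hedgehog genes. The 2 libraries were left out for their *Rspo2* counts, so any gene that varies with *Rspo2* among libraries for whatever reason, the share of mandibular tissue included, differs more after this step. The result is given as a description, and the share of tissue and expression per cell cannot be told apart.

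Of 22 upper face factors, 0 were higher and 3 lower with all 6 libraries (13.6% lower, against 1.94% of all autosomal genes, median -0.09). Among these were *Tbx3* (-0.54, SE 0.19) and *Aldh1a2*, which encodes an enzyme of retinoic acid synthesis, at 10.5, 3.16 and 3.54 CPM against 3.70, 1.68 and 3.64 CPM (-0.94, SE 0.40). Neither passed the adjusted threshold, and the groups overlapped in both. The number lower was 0 without DKO 2 and between 2 and 4 without each of the other libraries, and without both *Wnt9b*KO 2 and DKO 3 it was 5, with 1 higher. Of 24 facial mesenchyme factors, 1 was higher and 0 lower (median -0.07). This was *Zeb2*, a factor of neural crest migration, at 136, 147 and 137 CPM against 157, 160 and 163 CPM (0.19, SE 0.08, adjusted p = 0.842). Without *Wnt9b*KO 2, 5 mesenchyme factors were lower, and without both *Wnt9b*KO 2 and DKO 3, 7 were lower and 0 higher. The share of all autosomal genes without both libraries was 3.15% higher and 2.49% lower.

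Lists of growth, metabolism and matrix gave between 0 and 4 members each. Of 51 cell cycle genes, edgeR gave 0 in either direction with all 6 libraries and also without both *Wnt9b*KO 2 and DKO 3, and the median was -0.01. Without *Wnt9b*KO 1, 1 was higher and 2 lower with a median of -0.07, and without DKO 2, 1 was lower. Their summed level was 10221, 11452 and 11324 CPM in *Wnt9b*KO and 10347, 10577 and 11602 CPM in DKO. Of 33 genes of apoptosis and the p53 response, 2 were higher and 0 lower (6.06% higher, against 3.61% of all autosomal genes, median 0.04). *Trp53inp1*, a p53 target, was at 93.9, 79.6 and 80.7 CPM against 102, 98.0 and 96.8 CPM (0.22, SE 0.09, adjusted p = 0.753), and the proapoptotic *Bik* had a difference of 0.94 (SE 0.43, adjusted p = 0.877). Immediate early and heat shock genes gave 1 higher and 0 lower of 22 (median -0.05, *Klf6* at 0.30), glycolysis and hypoxia 1 higher and 1 lower of 31 (median -0.07, *Pfkp* at 0.33 and *Hk2* at -0.26), and cholesterol and fatty acid synthesis 0 in either direction of 28 (median 0.02). Imprinted growth regulators gave 0 higher and 2 lower of 19 (10.5% lower, against 1.94% of all autosomal genes, median -0.15). These were *Dlk1*, at 100, 99.4 and 111 CPM against 85.6, 92.9 and 69.6 CPM (-0.33, SE 0.13, adjusted p = 0.765), and *Peg3* at -0.25 (SE 0.11, adjusted p = 0.824). Collagens and matrix genes gave 2 higher and 2 lower of 27 (7.41% each, median -0.06). The proteoglycan gene *Lum* was at 41.3, 35.9 and 41.7 CPM against 58.3, 50.9 and 48.7 CPM (0.41, SE 0.12, adjusted p = 0.432), *Dcn* had a difference of 0.80 (SE 0.24), and *Col14a1* was among the lower genes at -0.62 (SE 0.22). Without *Wnt9b*KO 1, 7 matrix genes were higher and 1 lower, and 2 glycolysis genes were higher and 4 lower. Without DKO 1, 0 genes of apoptosis and the p53 response were higher, without *Wnt9b*KO 3, 2 cholesterol genes were higher, and without *Wnt9b*KO 3 or DKO 3, 0 imprinted genes were lower, with 1 higher in the former. The counts higher and lower without both *Wnt9b*KO 2 and DKO 3 were 1 and 0 of apoptosis and p53 genes, 1 and 1 of immediate early and heat shock genes, 1 and 0 of glycolysis genes, 0 and 0 of cholesterol genes, 0 and 0 of imprinted genes and 1 and 1 of matrix genes. Of all autosomal genes, 3.15% were higher and 2.49% lower there.

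The same *Rspo2* deletion can be read on the other *Wnt9b* background, as *Rspo2*KO minus wt, which shares no library with DKO minus *Wnt9b*KO. Of the 15 genes, 11 had the same sign in both differences and 3 passed an unadjusted p below 0.05 in *Rspo2*KO minus wt. Of all autosomal genes at an unadjusted p below 0.05 in DKO minus *Wnt9b*KO, 411 of the 590 higher and 134 of the 318 lower had the same sign. The share of each sign over all autosomal genes in *Rspo2*KO minus wt is not given, so these counts do not measure agreement. *St18* differed there by 0.57 (SE 0.12), *Rab3c* by 0.78 (SE 0.24) and *Ednrb* by 0.38 (SE 0.14), while *Hoxa2* differed by 0.53 (SE 0.43) and *Sgip1* by -0.03 (SE 0.14). In *Rspo2*KO minus wt, 1324 of all 16358 autosomal genes tested were higher and 647 lower at an unadjusted p below 0.05. The 3 of the 15 genes that passed there are to be read beside these counts, and do not measure agreement either. In both differences 131 genes passed, of which 87 were higher in both, 13 lower in both, 4 higher in DKO and lower in *Rspo2*KO, and 27 lower in DKO and higher in *Rspo2*KO. Across all autosomal genes, which are not independent of each other, Pearson's r of the 2 differences was 0.004. The sexes run in opposite directions here, since *Rspo2*KO had a male pattern and wt a female one.

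The interaction, that is, the difference between the 2 differences, passed an adjusted p below 0.05 in 2 autosomal genes (0.0122%), *Cdk5rap1* and *Eif3s6-ps2*, and an unadjusted p below 0.05 in 1534. *Cdk5rap1*, which encodes an enzyme that modifies mitochondrial transfer RNA, was at 7.59 and 9.12 CPM in wt, at 14.0, 15.4 and 11.1 CPM in *Rspo2*KO, at 17.1, 11.6 and 14.7 CPM in *Wnt9b*KO and at 8.22, 7.72 and 8.25 CPM in DKO. It was thus high in every library with a male pattern and low in every library with a female one, and interaction and sex cannot be told apart. The pseudogene *Eif3s6-ps2* was at 4.79, 10.9 and 6.18 CPM in *Wnt9b*KO and at 11.6, 13.8 and 6.98 CPM in DKO, at 11.8, 14.6 and 12.8 CPM in *Rspo2*KO, and at 0 and 0.0604 CPM in wt. Its interaction rests on the wt libraries, which had next to no counts. For *Eif3s6-ps2*, *Wnt9b*KO 2 lay near DKO 1 and DKO 2, and DKO 3 near *Wnt9b*KO 1 and *Wnt9b*KO 3. These are the 2 libraries whose *Rspo2* counts go against their labels, and the cause was not tested. The number of autosomal genes with interaction was 3 without *Wnt9b*KO 1 or *Wnt9b*KO 2, 1 without *Wnt9b*KO 3, DKO 2 or DKO 3, and 8 without DKO 1. *Eif3s6-ps2* passed in each of these, and *Cdk5rap1* only without *Wnt9b*KO 2. *Cdk5rap1* also missed the threshold with a replicate block. *Hist1h4c*, which missed it in the reported fit (adjusted p = 0.179), passed with that block (adjusted p = 0.00705), in DESeq2 and without DKO 1.

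Of the autosomes, chromosome 13 had the largest share of its tested genes differing. The share of genes tested with an unadjusted p below 0.05 ran from 3.51% on chromosome 7 to 9.01% on chromosome 13, where 47 of 666 genes were higher and 13 lower, against 908 in either direction of all 16358. Chromosome 13 held 4 of the 15 genes past the adjusted threshold (*Hist1h4c*, *Rab3c*, *Kif27* and *AK157302*). A mutant locus can carry flanking sequence of another strain, so genes near the 2 targeted loci were counted. Within 10 Mb of *Rspo2*, where the 2 genotypes differ, 61 genes were tested, 4 were higher and 2 lower at the unadjusted threshold, 0 passed edgeR's adjusted threshold, and the median was 0.06. Within 10 Mb of *Wnt9b*, where both groups are mutant, 330 genes were tested, 9 were higher and 3 lower, 0 passed the adjusted threshold, and the median was -0.01. *Hoxb1* and *Hoxb2* lie within the second window.

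Promoter windows were read for the genes past the adjusted threshold, from 250 bases before to 50 after the RefSeq gene start (GRCm38.p6), since TCF/LEF factors bind the letters CTTTGAA or CTTTGAT. Of the 15 genes, 11 have a window, and 2 of the 11 hold these letters on either strand, *Kif27* and *Rab3c*, against 2840 of all 32841 windows (8.65%) and 890 of 14799 windows of autosomal genes tested (6.01%). *Kif27* fell and *Rab3c* rose. The *Kif27* window lies at chr13:58354898-58355197 on the minus strand with the match starting at position -74 from the RefSeq gene start. The *Rab3c* window lies at chr13:110280157-110280456 on the minus strand with the match at -188. Both windows lie inside the GENCODE gene intervals given above, which reach position 58359122 for *Kif27* and 110280996 for *Rab3c*. The RefSeq starts used for these windows are thus not the outer ends of those intervals. Both are printed from 5′ to 3′ on the strand of the gene to show where the letters lie, and capitals mark them. A match describes these letters only and does not show that a factor binds.
Kif27: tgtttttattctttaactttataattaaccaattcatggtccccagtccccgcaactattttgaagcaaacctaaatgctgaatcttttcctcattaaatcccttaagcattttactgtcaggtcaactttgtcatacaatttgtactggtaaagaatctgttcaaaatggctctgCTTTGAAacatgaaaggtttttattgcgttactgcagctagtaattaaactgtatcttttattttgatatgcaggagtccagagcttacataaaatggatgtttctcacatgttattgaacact
Rab3c: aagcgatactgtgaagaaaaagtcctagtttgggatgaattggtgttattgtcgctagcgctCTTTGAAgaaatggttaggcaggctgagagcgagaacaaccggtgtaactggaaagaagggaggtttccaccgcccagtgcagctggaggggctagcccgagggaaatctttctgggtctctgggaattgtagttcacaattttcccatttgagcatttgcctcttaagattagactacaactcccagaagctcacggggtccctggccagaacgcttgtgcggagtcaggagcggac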

How the data were processed

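The counts per gene deposited by the authors were used, made according to the submitters' notes with cutadapt, STAR and HTSeq on build GRCm38; the authors tested with DESeq2, and versions were not given. Genes were placed with GENCODE M21, which matched 36723 of 38561. R 4.3.3 and edgeR 4.0.16 (filterByExpr, TMM, quasi-likelihood, genotype means of all 11 libraries) gave p-values adjusted by Benjamini-Hochberg over all genes tested. Named genes are those that check labels, those past the adjusted threshold, in each direction the 10 protein-coding genes of smallest p with no overlap and a mean of 1 CPM or more, 10 that the study measured or discussed, and 3 per list by p. Members and lists were chosen with earlier results of these data known. Alternatives were DESeq2 1.42.0, other scaling factors and filters, a replicate block and leaving out libraries. List counts without single libraries, without both libraries and with other scaling factors were chosen after seeing the data; RLE and upper-quartile factors gave the same list counts, except 1 erythroid gene lower with RLE factors. Where a group's counts summed to 3 or fewer, a count ratio is given. Floors and intervals cover counting error only. The model was also run on simulated data, whose results are not reported here and carry no conclusion. Values of some genes counted here, 1 of the 15 past the adjusted threshold among them, are not reported here.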

Additional observations from a re-analysis of the deposited data

Results flagged for a closer look

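The interaction passed the adjusted threshold for *Cdk5rap1*, at -1.53 on the log2 scale, which follows the sex pattern of the libraries. It also passed for *Eif3s6-ps2*, at -7.65. That fitted value rests on wt libraries with 0 and 1 count, so it depends on the prior count added in fitting and sets no bound. Groups of 3 were not tested for outlying libraries.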

How the results depend on the processing

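The number of autosomal genes past the adjusted threshold was 15, and 1 with only the 6 samples, 67 in DESeq2, 165 without a filter on low counts, 9 with a filter at 10 counts, 14 with RLE factors, 13 among autosomal genes only, 12 among autosomal protein-coding genes, 3 when tested against 1.5-fold, and from 3 to 49 when each library was left out. The number past the unadjusted threshold with 1.5-fold was 468, and 762 without a filter, 232 with a filter at 10 counts and 181 when tested against 1.5-fold. The number with interaction was 2, and 19 in DESeq2, 317 without a filter, 0 with a filter at 10 counts, 1 among autosomal genes only, 0 among autosomal protein-coding genes and from 1 to 8 when each library was left out. With only the 6 samples the interaction could not be fitted, since wt and *Rspo2*KO are absent.

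With a replicate block the numbers were 19, 473 and 3, where *Rab3c* and *Gm16551* were lost and 6 genes were gained, *Elavl4* among them. *Cdk5rap1* lost its interaction with this block, and *Hist1h4c* was among the genes that gained one. The labels do not state that replicate numbers pair libraries. Differences from the genotype mean correlated between libraries of the same number at 0.0891, 0.0894 and 0.230. Between libraries of different numbers the correlation ran from -0.177 to 0.0506. Each library thus correlated highest with that of the same number in the other genotype, and the cause was not tested. No named gene past the adjusted threshold, in the reported fit or in an alternative, had opposite signs in these fits. Without both *Wnt9b*KO 2 and DKO 3, 4 genes were higher and 10 lower, against 10 and 5. Those lower include *Rspo2*, whose passing follows from the choice of these libraries and is no test. Some list medians changed sign. Without *Wnt9b*KO 1, mandibular patterning went from -0.20 to 0.02, heart and striated muscle from -0.03 to 0.28, facial mesenchyme from -0.07 to 0.09, matrix from -0.06 to 0.09 and secreted antagonists from -0.03 to 0.08. Without both libraries, forebrain and eye went from -0.09 to 0.19 and erythroid genes from 0.01 to -0.28. Erythroid genes were at -0.17, -0.13 and -0.20 without *Wnt9b*KO 2, DKO 1 and DKO 3, and heart and muscle at 0.13 without DKO 3. Other medians changed sign as well, none of them past 0.1 in size after the change.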
